A study of Mus musculus with 36 samples.

Results

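The TNF receptors and NF-κB signalling genes, 10 genes in all, were followed in the mouse hypothalamus after an injection of TNFα, IL-6 or both. The ligand is Tnf, the receptors are Tnfrsf1a and Tnfrsf1b, and the signalling genes are Traf2, Ikbkg, Nfkb1, Rela, Nfkbia, Tnfaip3 and Icam1. Members were taken by symbol, as transcript clusters of the array that the annotation assigns to 1 gene alone. Of the 10 genes, 9 were measured in this way, each by 1 cluster, and all 9 passed the minimum intensity, which left them among 15049 genes tested. Nfkb1 was not analysed here.

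The data come from Affymetrix Mouse Gene 1.1 ST arrays, 36 in all, of male C57BL/6 mice with 1 array for each hypothalamus. Each mouse was given a single ip injection of 50 µl and was killed 5 h later, and the questions were whether the cytokines changed hypothalamic transcripts and whether TNFα and IL-6 acted on them together. Control mice received saline, and mice of the TNF group 15 pg of TNFα. A dose of 50 pg IL-6 made the IL-6 Low group, and 800 pg the IL-6 High group. A combined dose of 15 pg TNFα with 50 pg IL-6 made the TNF + IL-6 Low group, and 15 pg with 800 pg the TNF + IL-6 High group. All 6 groups shared strain, sex, injection and time, and the agents were given in the periphery and not into the brain. TNF replicate 4 was left out, so the TNF group held 5 arrays and every other group 6. That array stood apart, with a median r of 0.27 to the others, where each of the remaining 35 had 0.972 to 0.988.

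TNFα is released as a trimer and binds TNF receptor 1, found on most cells, and TNF receptor 2, found mainly on immune, glial and endothelial cells. Receptor complexes built with TRAF2 activate the IκB kinase, whose regulatory subunit is encoded by Ikbkg. The kinase marks the inhibitor IκBα (Nfkbia) for breakdown, and NF-κB dimers such as p65 (Rela) with p50 (Nfkb1) enter the nucleus. Nfkbia and Tnfaip3, which encodes the ubiquitin-editing enzyme A20, are themselves targets of NF-κB and end the response, while Icam1, an adhesion molecule, is a target on activated endothelium and glia.

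The promoters of Nfkbia, Tnfaip3 and Icam1, the 3 members named above as targets of NF-κB, are shown. This choice does not mean that other members are not targets. The sequences are the 250 bases before the start site in RefSeq (GRCm38.p6), 5′ to 3′ on the strand of the gene. Capitals mark matches on either strand to GGGNNNTTCC, a restricted form of the NF-κB motif. Sites that depart from these letters were not searched for and are not marked. The windows lie at chr12:55492648-55492897 on the minus strand for Nfkbia, chr10:19015411-19015660 on the minus strand for Tnfaip3 and chr9:21015690-21015939 on the plus strand for Icam1.
Nfkbia: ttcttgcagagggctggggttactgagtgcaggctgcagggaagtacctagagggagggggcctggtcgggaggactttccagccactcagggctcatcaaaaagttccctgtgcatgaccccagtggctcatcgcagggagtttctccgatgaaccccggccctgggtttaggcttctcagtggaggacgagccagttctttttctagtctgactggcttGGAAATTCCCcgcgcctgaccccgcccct
Tnfaip3: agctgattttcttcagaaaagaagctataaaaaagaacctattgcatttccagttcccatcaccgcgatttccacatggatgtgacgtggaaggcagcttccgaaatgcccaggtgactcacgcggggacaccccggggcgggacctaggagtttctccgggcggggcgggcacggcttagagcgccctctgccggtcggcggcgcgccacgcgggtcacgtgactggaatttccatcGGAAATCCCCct
Icam1: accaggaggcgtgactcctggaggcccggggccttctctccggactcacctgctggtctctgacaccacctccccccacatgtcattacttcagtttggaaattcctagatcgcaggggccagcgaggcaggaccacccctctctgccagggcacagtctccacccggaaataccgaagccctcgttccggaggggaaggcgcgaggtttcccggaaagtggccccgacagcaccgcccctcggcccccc

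The match in Nfkbia began 29 bases before the start site, and that of Tnfaip3 12 bases before it. In a further Tnfaip3 window, chr10:19011964-19012213, a match began 90 bases before the start. These exact letters were not present in the Icam1 window, nor in the windows of Tnf, Tnfrsf1a, Tnfrsf1b, Traf2, Rela and Ikbkg. They were found for 2 of 9 members and in 1527 of 32851 promoter windows (4.65%). Among genes of the TNF and NF-κB lists described further on, 19 of 74 with a window (25.7%) held the motif, against 688 of 11803 tested genes (5.83%). The list genes were not restricted to those tested. Some were chosen as NF-κB targets or inhibitors, so their higher share follows in part from the choice. The presence of these letters is a description and does not show that a factor binds.

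None of the 9 genes differed between the treated groups and Control after adjustment over all genes (limma with Benjamini-Hochberg adjustment, 0 of 9 in each of the 5 comparisons). The background was equally empty, with 0% of the 15049 genes called in every comparison. No member reached an unadjusted p of 0.05 either, whereas TNF had 5.29% of all genes at that level, IL-6 Low 1.4%, IL-6 High 2.07%, the combination with the low dose 9.58% and that with the high dose 2.05%. The arrays of a treated group and of Control overlapped for every member. Of all genes, those that did not overlap with Control made up 0.246% for TNF, 0.0664% for the low and 0.0332% for the high dose of IL-6, and 0.193% and 0.159% for the low and high combinations. By sign alone, 5 of 9 members were higher in TNF (55.4% of all genes), 3 with the low (45.9%) and 3 with the high dose of IL-6 (52.6%), 2 in the low combination (44.1%) and 2 in the high one (37.7%). All 5 comparisons use the same Control arrays. Values are log2 intensities, and differences are on the log2 scale, with 95% confidence intervals from the same model.

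**Figure D1:**
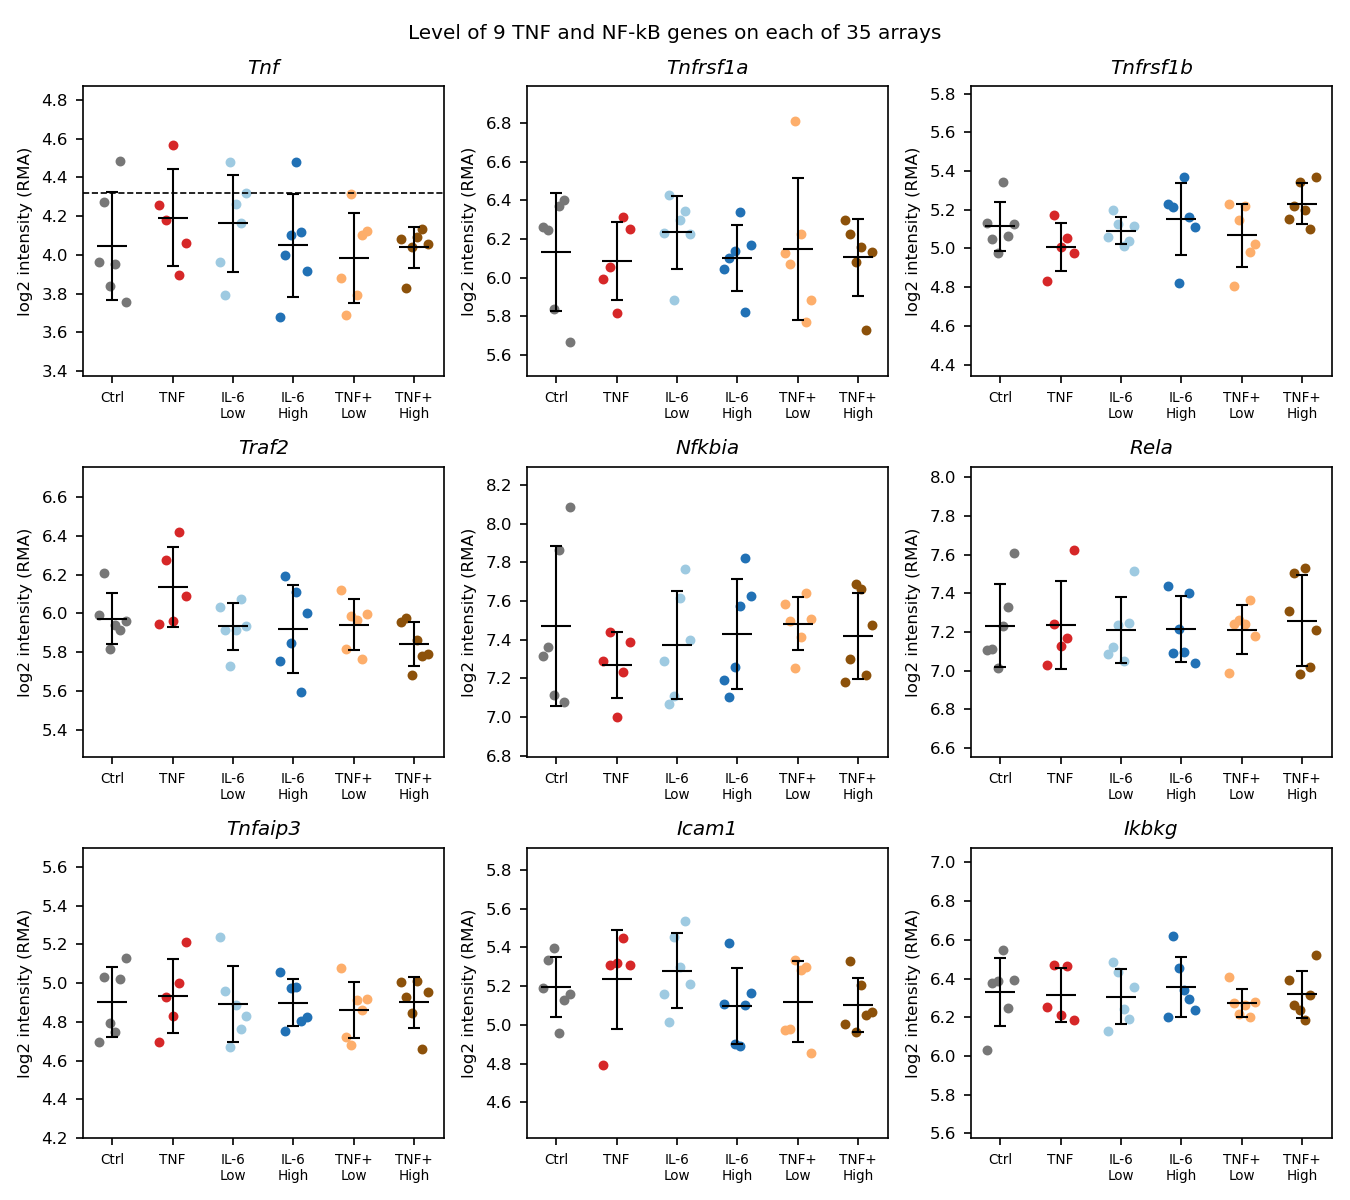
Log2 intensity (y axis, 1 panel per gene) on each of 35 arrays in the 6 groups (x axis; Ctrl, Control), with bars for the group mean and SD. The groups overlap for every gene, and most Tnf values lie under the dashed line, which marks the minimum intensity of 20.

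The ligand itself was close to the lower limit of the array (Tnf, transcript cluster 10450501). It exceeded the minimum intensity of 20 on 4 of 35 arrays, 1 in each of the 4 groups that did not combine the cytokines. In the TNF group its log2 intensity was 4.26, 4.18, 4.57, 3.90 and 4.06. Control arrays ran from 3.75 over a median of 3.96 to 4.48, so that both groups covered nearly the same range. The mean was 4.19 ± 0.25 (SD, n = 5) with TNFα and 4.04 ± 0.28 (n = 6) in Control, a difference of 0.15 with an interval from -0.13 to 0.43. TNF + IL-6 Low had the lowest mean, 3.98 ± 0.23 (n = 6). With most values under the minimum, the arrays limit what can be said of Tnf, and no change of its transcript was detected.

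Tnfrsf1a, encoding TNF receptor 1, the main receptor for soluble TNFα, varied more between arrays than between groups (transcript cluster 10541895). The TNF arrays stood at 5.99, 6.06, 5.82, 6.31 and 6.25. Control ran from 5.67 over a median of 6.26 to 6.40 and thus enclosed all 5. The means were 6.09 ± 0.20 (n = 5) and 6.13 ± 0.30 (n = 6), a difference of -0.05 with an interval from -0.33 to 0.24. The highest mean was in IL-6 Low (6.23 ± 0.19, n = 6) and the lowest in TNF. The single highest array was TNF + IL-6 Low replicate 3 at 6.81, next to a maximum of 6.43 in all others. That array also had the highest pituitary list mean, 10.75 against 4.18 to 6.77 on the other 34 (6 of 8 genes measured, 5 tested). The difference of its group from Control was 0.02 with that array and -0.12 without it, and the part of the pituitary list was not tested.

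Tnfrsf1b, encoding TNF receptor 2, had its lowest mean in the TNF group and its highest in TNF + IL-6 High (transcript cluster 10518300). The TNF arrays were at 4.83, 5.17, 5.01, 5.05 and 4.97. Control arrays ran from 4.97 over 5.09 to 5.34, and TNF + IL-6 High from 5.10 over 5.21 to 5.37. Only TNF replicate 2 lay within the range of TNF + IL-6 High. Against Control (5.11 ± 0.13, n = 6) the difference was -0.11 in TNF (5.01 ± 0.12, n = 5), with an interval from -0.29 to 0.07. In TNF + IL-6 High (5.23 ± 0.11, n = 6) it was 0.12, with an interval from -0.05 to 0.29. Neither passed (adjusted p = 0.911 and 1, limma).

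Traf2, the adaptor that carries the ubiquitin ligases of the receptor complex, had the largest positive difference of the 9 genes in TNF (transcript cluster 10480760). Its TNF arrays were at 5.95, 6.28, 5.96, 6.42 and 6.09. Control ran from 5.82 over 5.95 to 6.21, so replicates 2 and 5 of TNF lay above all Control arrays and the other 3 within them. The difference was 0.17 (SE 0.10) with an interval from -0.03 to 0.37 (unadjusted p = 0.102, adjusted p = 0.911, limma). Among all genes, 14.3% moved further from Control in TNF. The arrays with TNFα and IL-6 were not high, at 5.94 ± 0.13 (n = 6) for TNF + IL-6 Low, while TNF + IL-6 High had the lowest mean of the 6, 5.84 ± 0.11 (n = 6).

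With each array left out in turn, the Traf2 difference in TNF stayed positive, from 0.10 to 0.21 (without TNF replicate 1). TNF replicate 5, the highest at 6.42, also had the highest means of the microglia (7.08), astrocyte (9.25), blood leukocyte (5.33) and raphe (8.52) lists. TNF replicate 2 had the highest mean of the cerebellar list (7.55, against 4.45 to 5.87 on the other arrays). Without replicate 5 the difference was 0.10, and without both arrays it was 0.03. Both are the highest TNF arrays for Traf2, so leaving them out lowers the difference in any case. The microglia list (10 of 11 genes tested) ran from 6.74 to 7.08 in TNF and from 6.67 to 6.88 in Control, and all 10 genes were higher on average in TNF, with 0 called. In bulk tissue a difference in the number of cells of a type and one in RNA per cell cannot be told apart.

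Ikbkg, the regulatory subunit of the IκB kinase, and Rela, the transactivating p65 subunit, had group means close to each other (transcript clusters 10600453 and 10460631). Ikbkg was at 6.26, 6.47, 6.21, 6.47 and 6.18 in TNF and ran from 6.03 over 6.38 to 6.55 in Control. Rela was at 7.03, 7.24, 7.13, 7.17 and 7.62 in TNF and from 7.01 over 7.17 to 7.61 in Control. The TNF arrays thus lay inside the range of Control for Ikbkg and over nearly the same range for Rela. The differences were -0.01 for Ikbkg (interval -0.19 to 0.16) and 0.00 for Rela (interval -0.22 to 0.23). Over all 6 groups the means of Rela spanned 0.05 and those of Ikbkg 0.09, less than the SD within groups (0.19 and 0.14).

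Nfkbia, the inhibitor IκBα, had the largest SD over the arrays of the 9 genes (0.26) and its lowest mean in TNF (transcript cluster 10400405). The TNF arrays were at 7.29, 7.44, 7.00, 7.23 and 7.39. Control ran from 7.08 over 7.34 to 8.09, with replicate 4 at 7.86 and replicate 6 at 8.09 above every TNF array and the other 4 among them. The means were 7.27 ± 0.17 (n = 5) and 7.47 ± 0.41 (n = 6), a difference of -0.20 with an interval from -0.51 to 0.10 (unadjusted p = 0.191, adjusted p = 0.911, limma). Without Control replicate 6 it was -0.08, and without Control replicate 5 it was -0.28. In the other groups Nfkbia had means from 7.37 ± 0.28 (n = 6) in IL-6 Low to 7.48 ± 0.14 (n = 6) in TNF + IL-6 Low. Markers of mural cells were lower in TNF, 7 of 8 genes with a median of -0.34 and 0 called. They were also lower than Control in each other treated group, 6 of 8 genes. The median was -0.30 in TNF + IL-6 Low, where the mean of Nfkbia was highest. The part of these markers in the level of Nfkbia was not tested.

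Tnfaip3, which encodes A20, a brake on the same pathway, was nearly level over the groups (transcript cluster 10368144). It was at 4.70, 4.93, 4.83, 5.00 and 5.21 in TNF and ran from 4.69 over 4.91 to 5.13 in Control. The TNF group gave both a value near the lowest and a value above the highest of Control. The difference was 0.03 with an interval from -0.18 to 0.24. The 6 group means spanned 0.07, against an SD within groups of 0.16.

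Icam1, the adhesion molecule that binds leukocyte integrins, was at 4.79, 5.31, 5.32, 5.45 and 5.31 in TNF (transcript cluster 10583519). Replicate 1 lay well under the other 4, while Control ran from 4.96 over 5.18 to 5.40. The difference was 0.04 with an interval from -0.19 to 0.27, and without TNF replicate 1 it was 0.15. IL-6 Low had the highest mean (5.28 ± 0.19, n = 6) and IL-6 High the lowest (5.10 ± 0.20, n = 6). The means of TNF + IL-6 Low (5.12 ± 0.21, n = 6) and of TNF + IL-6 High (5.10 ± 0.14, n = 6) were close to the latter, and all lay within the spread between arrays of Control (5.20 ± 0.16, n = 6).

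Ordered by mean, neighbouring groups differed by less than the SD within groups for 8 of the 9 genes. The exception was Traf2, where TNF stood 0.17 above Control, next to an SD of 0.16. From the highest to the lowest group the distance exceeded that SD for Traf2 (0.30) and Tnfrsf1b (0.22, against 0.13). These were also the genes with the largest share of variance between groups, 26.1% and 23.9%, where the median gene had 13.05%. For Rela it was 1.04% and for Tnfaip3 1.82%. A test for any difference among the 6 groups gave no call (0% of all genes, with 3.01% at an unadjusted p under 0.05), with the smallest unadjusted p for Traf2 at 0.107 and Tnfrsf1b at 0.208 (limma, both adjusted p = 1).

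To ask what TNFα did whatever the IL-6 dose, the 17 arrays with TNFα were set against the 18 without. Again 0 of 9 members were called, as were 0% of all genes, and 0 members but 5.99% of all genes had an unadjusted p under 0.05. The 9 differences ran from -0.04 for Tnfrsf1a to 0.03 for Traf2, with 3 higher and 6 lower and a median of -0.02. Over all genes the median was -0.01 and 45.8% were higher. The intervals of the 9 genes all lay between -0.20 and 0.15. For Tnfaip3, known as a sensitive NF-κB target, the difference was 0.00 with an interval from -0.12 to 0.12, and for Nfkbia it was -0.03 with an interval from -0.20 to 0.14.

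**Figure D2:**
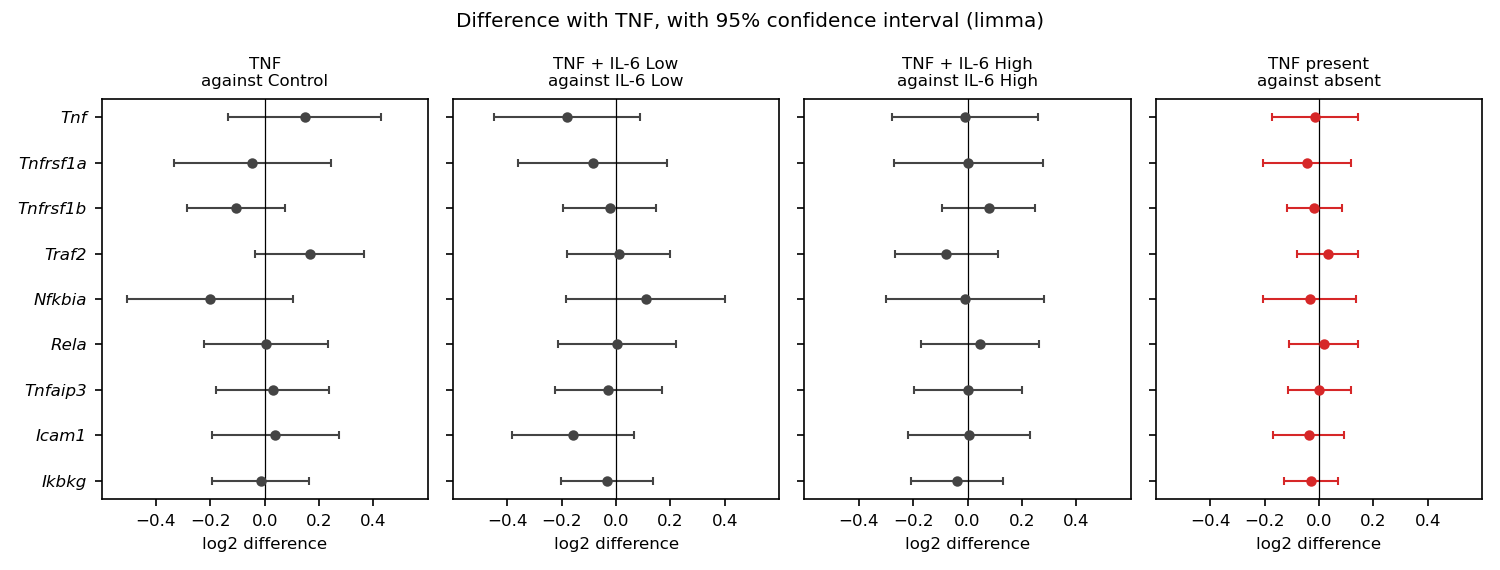
Log2 difference with TNFα (x axis) of each gene (y axis) without IL-6, with 50 pg IL-6, with 800 pg IL-6 and over all groups, with points for the estimate and bars for the 95% confidence interval (limma). Every interval includes 0, and those over all groups lie between -0.20 and 0.15.

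The difference with TNFα was then taken at each dose of IL-6. With 50 pg IL-6 it ran from -0.18 for Tnf (interval -0.45 to 0.09) to 0.11 for Nfkbia (interval -0.18 to 0.40), and Icam1 had -0.16 (interval -0.38 to 0.06). With 800 pg it ran from -0.08 for Traf2 to 0.08 for Tnfrsf1b. At 50 pg 3 of 9 members were higher with TNFα (46.6% of all genes) and at 800 pg 5 of 9 (38%), with 0 called and 0% of all genes called at either dose. None had an unadjusted p under 0.05, where 4.63% of all genes did at 50 pg and 2.29% at 800 pg. The arrays with and without TNFα overlapped for every member, and did not for 0.106% and 0.0465% of all genes. The sign for Tnf, Traf2 and Nfkbia without IL-6 (0.15, 0.17 and -0.20) was thus kept at neither or only 1 of the IL-6 doses. The test of this difference, the interaction of TNFα with IL-6, gave 0 calls among the members and 0% of all genes, of which 2.65% had an unadjusted p under 0.05. Its smallest unadjusted p in the members was 0.211 for Traf2 (adjusted p = 0.997, limma).

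Lists of related genes were examined in the same way, 92 genes in 8 lists with the members included. Of these, 78 were tested, 9 stayed below the minimum intensity (Lta, Cd40lg, Fasl, Selp, Cxcl2, Cxcl10, Il1b, Il6 and Tnfaip2) and 5 had no cluster named to them alone. The highest log2 intensity of the cytokines Il1b and Il6 on any array was 4.08 and 2.49, and that of the chemokine Cxcl10 was 4.22. Between groups with and without TNFα, 39 of the 78 were higher and 39 lower, with a median of 0.00 and 0 called (smallest adjusted p = 0.804, limma). None had an unadjusted p under 0.05, where 5.99% of all genes did.

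**Figure D3:**
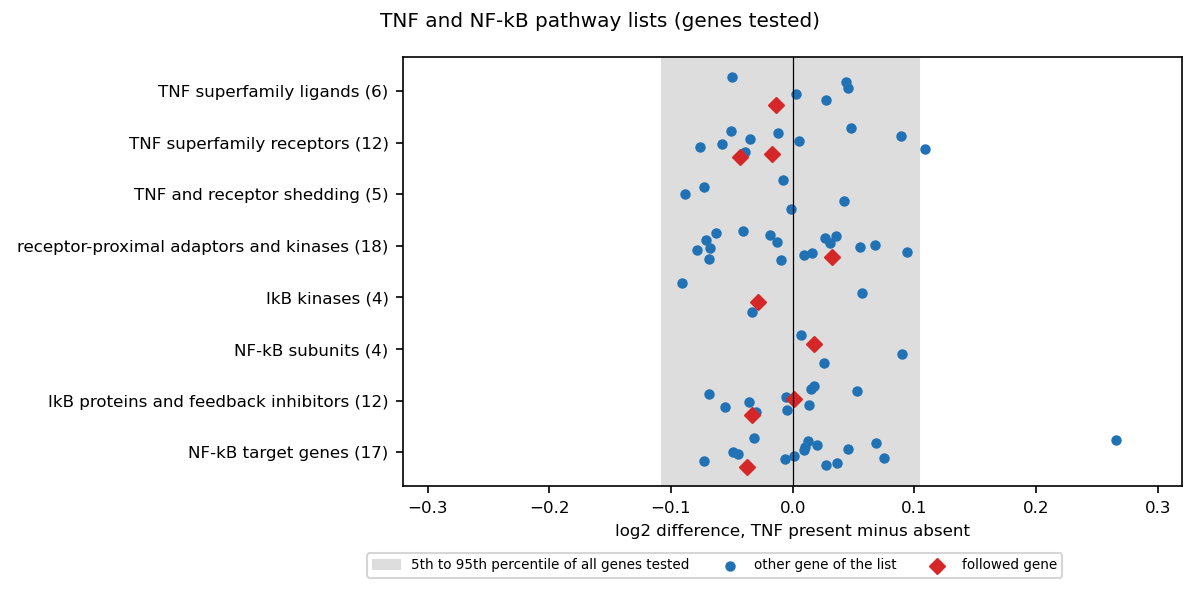
Log2 difference between groups with and without TNFα (x axis) of the 78 tested genes in 8 lists (y axis, number tested in brackets), with the 9 followed genes as diamonds and a grey band from the 5th to the 95th percentile of all 15049 genes. Lcn2 (0.27), a target gene, and Cd40 (0.11), a receptor, lie outside the band, and the 9 followed genes lie within it.

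Among TNF superfamily ligands, 4 of 6 were higher with TNFα and 2 lower. Those of smallest p were Tnfsf13b, the B cell survival factor BAFF, at 0.04 and Tnfsf11, the osteoclast factor RANKL, at 0.05. Of 12 receptors, 4 were higher and 8 lower, and Cd40, a costimulatory receptor, had a difference of 0.11 with an interval from -0.02 to 0.24 (unadjusted p = 0.106). In TNF + IL-6 High its mean was 5.21 ± 0.26 (n = 6) against 4.96 ± 0.13 in Control, a difference of 0.26 (unadjusted p = 0.0281, adjusted p = 1, limma). With the neurotrophin receptor Ngfr (0.36), Timp3 (-0.21) and Rnf31 (-0.16), it was 1 of 4 listed genes (5.13%) at an unadjusted p under 0.05 there, next to 2.05% of all genes.

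The 5 genes for release of TNFα and its receptors from the cell surface gave 1 higher and 4 lower. Timp3, which inhibits the TNFα-releasing protease ADAM17, had the most negative difference of the listed genes between TNF and Control. Its mean was 9.39 ± 0.20 (n = 5) against 9.69 ± 0.14 (n = 6), a difference of -0.29 with an interval from -0.50 to -0.09 (unadjusted p = 0.00596, adjusted p = 0.911, limma). Differences from the same Control arrays were -0.13 for IL-6 Low, -0.20 for IL-6 High, -0.09 for the low combination and -0.21 for the high one. The mural and meningeal markers, 7 of 8 and 10 of 11 genes, were also lower in TNF. The medians of both lists were below Control in the other treated groups too, and their part in the level of Timp3 was not tested. Rhbdf1, which encodes a rhomboid-like protein needed for ADAM17 maturation, had -0.16 in TNF (unadjusted p = 0.0387, adjusted p = 0.911, limma). Timp3 and Rhbdf1 were the only 2 of the 78 genes with an unadjusted p under 0.05 in TNF (2.56%, against 5.29% of all genes).

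Of 18 receptor-proximal adaptors and kinases, 9 were higher and 9 lower with TNFα. Birc2, a ubiquitin ligase recruited by TRAF2, had 0.09 (unadjusted p = 0.0732), and Tab1, a partner of the kinase TAK1, had -0.07. In TNF + IL-6 Low, Birc2 was 0.25 above Control with an interval from 0.07 to 0.42 (unadjusted p = 0.00713, adjusted p = 0.511, limma). Together with Cyld, a deubiquitinase (0.18), and Tnfrsf21 (-0.16), Rbck1 (-0.18) and Csf1 (-0.19), it made 5 of 78 genes (6.41%) at an unadjusted p under 0.05, next to 9.58% of all genes.

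The kinases and NF-κB subunits also stayed within narrow limits. Of 4 IκB kinase genes, 1 was higher and 3 lower, with Ikbke at -0.09 and Tbk1 at 0.06. All 4 subunit genes measured had a positive difference with TNFα, Rel at 0.09 (unadjusted p = 0.0936), Nfkb2 at 0.03, Rela at 0.02 and Relb at 0.01. Of 12 inhibitors, 5 were higher and 7 lower, with Tnip2, a partner of A20, at -0.07 and Cyld at 0.05. Of 17 target genes, 11 were higher and 6 lower with a median of 0.01, and the monocyte chemokines Ccl7 and Ccl2 had 0.08 and -0.07.

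Lcn2, the acute-phase protein lipocalin 2 of the target list, is named after its values were seen, since it had the largest difference of the 78 genes with TNFα (0.27, interval -0.20 to 0.74). It was at 4.89, 5.61, 5.10, 6.26 and 5.44 in TNF and ran from 4.59 over 5.05 to 5.47 in Control. In TNF + IL-6 Low it ran from 4.77 over 5.47 to 8.09, and in IL-6 High from 4.41 over 5.42 to 6.79. Some treated arrays thus lay above all Control arrays, while others, such as IL-6 High at 4.41, were as low as any. The largest difference from Control, 0.70 in TNF + IL-6 Low, did not pass (interval -0.10 to 1.50, adjusted p = 0.539, limma). The array at 8.09 was replicate 3, the one highest in the pituitary list. Without it that difference was 0.23 (adjusted p = 0.821, limma), and the one with TNFα over all groups was 0.11 (adjusted p = 0.917, limma). Over 35 arrays Lcn2 had r = 0.701 with the pituitary list and 0.534 with the blood leukocyte list. Over the 34 without that array the values were 0.421 and 0.753. Only the tested genes of each list were used here, 5 of 8. The part of those lists was not tested.

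These values were also set beside the promoter motif, as a description. The median difference with TNFα was -0.0040 over the 688 tested genes whose window held it and -0.0070 over the 11115 without it. The quartiles of the motif genes were -0.0480 and 0.0390. Nfkbia and Tnfaip3, with the matches printed above, had -0.03 and 0.00.

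The arrays differed among themselves in the levels of the followed genes, and these differences were described by correlation over the 35 arrays, which share tissue, platform and normalization. The 9 genes hardly moved together. Over their 36 pairs Pearson's r ran from -0.21 to 0.39 with a median of 0.00, and 2 pairs exceeded 0.3, namely Tnfrsf1a with Traf2 (0.39) and Rela with Tnfaip3 (0.34). Nfkbia and Tnfaip3, both NF-κB targets, were no exception, and neither reached 0.3 with Icam1.

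Nfkbia had the closest neighbour of any member. Its level followed that of Sgk1, a kinase induced by glucocorticoids, with r = 0.857 over the 35 arrays and 0.869 after group means were removed. Leaving out Control replicates 6 and 4, the arrays farthest from the median of Nfkbia, gave 0.845 over 33 arrays. The next were Polr3e, a subunit of RNA polymerase III (0.807), and Net1, an exchange factor for RhoA (0.784). Over all genes tested, the 5th and 95th percentiles of r with Nfkbia were -0.39 and 0.36.

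**Figure D4:**
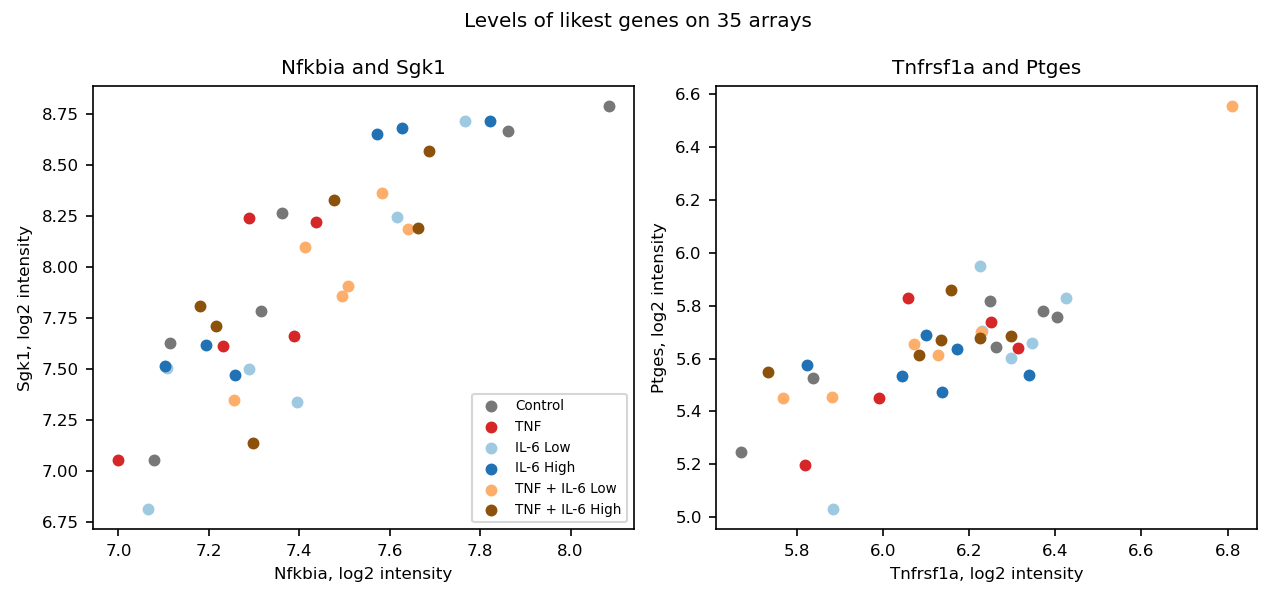
Log2 intensities of Nfkbia and Sgk1 and of Tnfrsf1a and Ptges on 35 arrays, each point 1 array coloured by group. Sgk1 is higher where Nfkbia is higher, in all groups (r = 0.857), and the relation of Ptges with Tnfrsf1a (r = 0.765) includes 1 array of TNF + IL-6 Low high in both.

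Of 12 glucocorticoid-responsive genes, those nearest to Nfkbia after Sgk1 were Klf9 (0.677) and Zbtb16 (0.613), both transcription factors. Errfi1 had 0.494 and Per1 0.415. Lower values were found for Tsc22d3 (0.283), Ddit4 (0.273), Pdk4 (0.256), Cdkn1a (0.229), Mt1 (0.156), Fkbp5 (0.056) and Mt2 (-0.013). All of these lower values lay between the 5th and 95th percentiles of r over all genes, -0.39 and 0.36. The mean of the 12 genes had r = 0.632 with Nfkbia. It ran from 8.10 to 8.56 in TNF and from 8.18 to 8.68 in Control, and 8 of the 12 genes were lower in TNF, with 0 called. Sgk1 had its lowest means in IL-6 Low (7.69) and TNF (7.76) and stood at 8.03 in Control. The part of these genes in the level of Nfkbia was not tested.

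The other members had looser neighbours. Tnfrsf1a was nearest to Ptges, the inducible synthase of prostaglandin E2 (0.765), Rcn3 (0.706) and Tap2, a peptide transporter for MHC class I (0.680). Without TNF + IL-6 Low replicate 3 and Control replicate 6 the value for Ptges was 0.622 over 33 arrays. Traf2 was nearest to Rab3ip (0.732), Rela to the phosphatase gene Ctdsp1 (0.724), Ikbkg to Magee1 (0.684) and Tnfaip3 to Kctd8 (0.652). Tnfrsf1b was nearest to Dpagt1, an enzyme of N-glycosylation (0.596), Icam1 to Pxn, the adhesion adaptor paxillin (0.567), and Tnf to AF366264 (0.554), the lowest of the 9.

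Marker lists of cell types and neighbouring tissue were set beside the members in the same way, 117 correlations in all. After Nfkbia with the glucocorticoid list, the largest were Traf2 with microglia (0.480), Nfkbia with mural cells (0.471), Ikbkg with endothelial cells (-0.464) and Tnfrsf1a with meningeal fibroblasts (0.442). For Icam1, the adhesion molecule of endothelium, r with the endothelial list was 0.171, and for Tnf r with the microglia list was 0.024. The mural list (8 of 8 genes tested) ran from 6.10 to 6.63 in TNF and from 6.24 to 7.19 in Control. In TNF 7 of its genes were lower, 5 at an unadjusted p under 0.05 (limma, against 5.29% of all genes), and 0 called. The meningeal list (11 of 11) ran from 5.83 to 6.84 and from 5.73 to 7.29, with 10 genes lower in TNF at a median of -0.38 and 0 called. The median of all genes in TNF was 0.01. These shifts were not particular to TNF, as Control had the highest mean of all groups for both lists (6.71 mural, 6.63 meningeal). In the other treated groups 6 of 8 mural and 10 or 11 of 11 meningeal genes were lower than Control. The lowest meningeal median was in IL-6 High, -0.58, with 5 genes at an unadjusted p under 0.05 (limma, against 2.07% of all genes) and 0 called. The part of these lists in the values of the members was not tested.

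**Figure D5:**
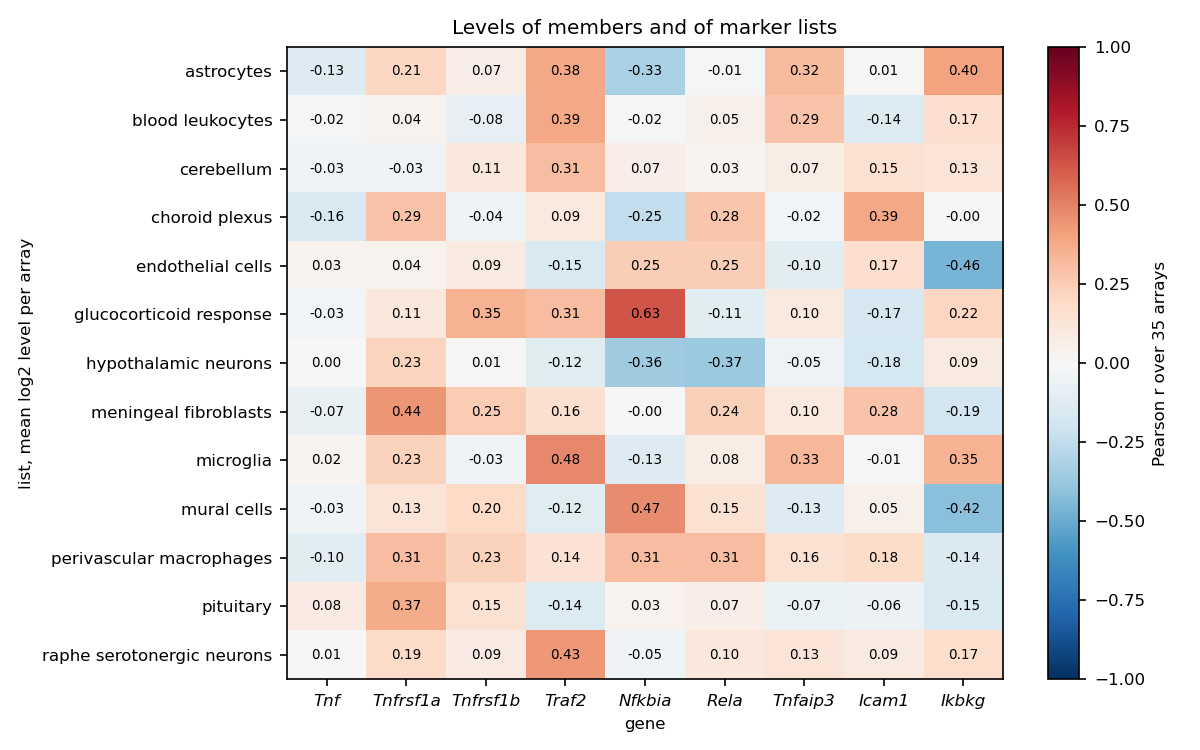
Pearson's r over 35 arrays between the log2 intensity of each gene (x axis) and the mean log2 level of each marker list (y axis), printed in each cell. The largest is 0.63, for Nfkbia with the glucocorticoid-responsive genes, and no other exceeds 0.48 in size.

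Several neuropeptide transcripts of the hypothalamus were high on every array. Median log2 intensities were 9.47 for Hcrt, 10.22 for Oxt, 9.72 for Avp and 8.27 for Trh, all neuropeptides of hypothalamic neurons, and their lowest values on any array were 8.00, 8.87, 8.34 and 7.15. Other defining genes were lower, Nkx2-1, a transcription factor of the ventral hypothalamus, from 5.89 over 6.44 to 6.88, and Pomc, made in arcuate neurons and also in the pituitary, from 5.16 over 6.02 to 11.45. The mean of the hypothalamic list (8 of 10 genes tested) ran from 7.73 to 8.31 in TNF and from 7.73 to 8.55 in Control. Its lowest value on any array was 7.14, on TNF + IL-6 High replicate 2. The same array had the highest means of the choroid plexus (5.95) and endothelial (7.32) lists.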

How the data were processed

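Deposited log2 intensities, which the authors made with RMA (version not given in the sources used here) from biotin-labelled cDNA of total RNA, were used without another normalization. The paper's remapping to Entrez genes, its minimum of 7 probes and its pathway analysis were not used. Of 35556 transcript clusters, 21218 name 1 gene in the annotation used, 1881 several and 12457 none, and only the first were kept. For the 1386 genes with several clusters the one of highest mean was taken, and 18820 genes resulted. Genes with an intensity over 20 on at least 3 of the 35 arrays were tested, 15049 in all. Nfkb1 had no cluster to itself and was not analysed here.

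Each mouse gave 1 array, and mice are taken as independent. The number of arrays limits the precision. The methods exclude 1 TNF array without naming it. TNF replicate 4 was left out here. The labels call the TNF treatment low, and the paper gives 1 dose. For Control replicates 5 and 6 the labels and the array names disagree on the mouse number, and both give Control.

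In R 4.3.3, limma 3.58.1 (lmFit, then eBayes with an intensity trend) was fitted over the 6 groups at once, and p-values were adjusted by Benjamini-Hochberg over 15049 genes with a threshold of 0.05. The script was tested on simulated data. Contrasts were each treated group against Control, TNFα present against absent (mean of 3 group means against mean of 3), TNFα at each IL-6 dose, the interaction and any difference. Genes named are the members, per list those that passed or else the 2 of smallest p with TNFα, the 3 genes of highest correlation for each member (the first at least is printed), and list genes at an unadjusted p under 0.05, with Lcn2, chosen after their values were seen. The members and lists were chosen with earlier results of these data known. Alternatives were all 36 arrays, no filter, an intensity over 50, quantile normalization, median centring, weighted arrays, no trend, only the groups compared, a replicate block, the mean of clusters, leaving out Control replicates 5 and 6 and leaving out each array in turn. Leaving out the 3 arrays highest in pituitary, cerebellar or raphe markers was chosen after seeing the data, as were leaving out the highest array for Lcn2 and running the alternatives for TNFα at each IL-6 dose.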

Additional observations from a re-analysis of the deposited data

Results flagged for a closer look

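In 54 combinations of member and group, the highest or lowest array was compared with the next, and 4 arrays stood apart by Dixon's criterion. Chance alone gives about 1 in 20 such groups. Tnf was low on TNF + IL-6 High replicate 2, at 3.83, where the next array had 4.04. Tnfrsf1a was low on IL-6 Low replicate 3, at 5.88 against 6.23. Icam1 was low on TNF replicate 1, at 4.79 against 5.31, and the difference of TNF from Control was 0.15 without that array. Ikbkg was high on TNF + IL-6 Low replicate 1, at 6.41 against 6.28.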

How the results depend on the processing

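The count of members called was 0 in each comparison with Control, for TNFα present against absent, the interaction and any difference, under the 12 alternatives and with each of 35 arrays left out in turn (range 0 to 0). At an intensity over 50, 5 of the 9 members were tested, and Tnf, Tnfrsf1b, Tnfaip3 and Icam1 were not. For TNFα at each IL-6 dose it was 0 under 11 alternatives and with each array left out. An unadjusted p under 0.05 was reached by 1 member in TNF against Control with all 36 arrays, without TNF replicate 1 or without Control replicate 2, and by 1 in the interaction with array weights. Of the member differences, none of which was called, 48 of 615 under the alternatives and 124 of 846 with 1 array of the groups compared left out had the opposite sign. With TNF replicate 4 included, where Tnf was 7.01 and Rela 5.18, the differences of TNF from Control were 0.62 for Tnf, 0.28 for Icam1 and -0.34 for Rela, with a smallest adjusted p of 0.362. With 1 array left out, Traf2 in TNF against Control ran from 0.10 (without TNF replicate 5) to 0.21 (without TNF replicate 1), and Nfkbia from -0.28 to -0.08. Under the other alternatives Traf2 ran from 0.03 to 0.20 and Nfkbia from -0.26 to -0.14. The 0.03 came without the arrays highest in pituitary, cerebellar and raphe markers. The fit of only the groups compared was not run for TNFα present against absent, the interaction or any difference, which need all groups. Signal over background limits Tnf most, as it passed the minimum on 4 of 35 arrays. Tnfrsf1b, Tnfaip3 and Icam1 were also low, with highest intensities of 41.4, 37.7 and 46.4 on the 35 arrays.

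With the replicate block, 0 members were called, and Traf2 and Nfkbia in TNF against Control had 0.17 and -0.16. The labels tie no animals together by number. Deviations of same-numbered arrays correlated by 0.0612 on average over 85 pairs (-0.312 to 0.584, 36 over 0.1), those of other numbers by -0.0121 over 425 (104 over 0.1), and 14 of 35 arrays correlated best with their own number, which is a hint from the data and not from the design.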
